A study of Macaca fascicularis with 3 samples.

Results

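Bone morphogenetic protein (BMP) response genes were followed through the germ cells of reconstituted ovaries: MSX1, MSX2, ID1, ID2, ID3, ID4, SMAD6 and SMAD7. They are the 8 features that carry these symbols in the deposited feature lists, of 26017 features in all, and ZGLP1 was read beside them. All 8 passed the filter on low counts and were tested in each comparison. BMP ligands bind type 1 and type 2 serine-threonine kinase receptors, which phosphorylate SMAD1, SMAD5 and SMAD9, and these enter the nucleus with SMAD4 and switch on target genes. The ID genes and the inhibitory SMADs are among the most direct of these targets, and MSX1 and MSX2 are homeobox genes downstream of BMP in many embryonic tissues. In mouse fetal ovaries BMP signalling helps germ cells take up the oogenic programme together with retinoic acid, ZGLP1 is a transcriptional regulator that acts downstream of BMP there, and MSX1 and MSX2 have been linked to the entry into meiosis.

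The germ cells came from the cynomolgus monkey embryonic stem cell line 15XRi-AGVT#7, a single line of wildtype genotype that carries the reporters TFAP2C-EGFP and DDX4-tdTomato. They were cultured in xenogeneic reconstituted ovaries (xrOvary), which are aggregates of the monkey cells with mouse ovarian somatic cells, and were taken at the time point that the labels call ag49+52. There was 1 library for each stage of the mouse cells (embryonic day E13.5, E14.5 and E15.5). Before loading, living (DRAQ7-negative) germ cells with a signal of either reporter and high FSC-W were sorted, mouse cells without reporter signal and with low FSC-W were sorted separately, and the sorted cells were pooled, so that their proportion reflects the pooling. All groups shared the cell line, the reporters and the culture time, and no library without mouse cells or with another BMP signal was part of the comparison.

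Germ cells were taken as barcodes with 10000 or more UMIs (unique molecular identifiers, each standing for 1 captured RNA molecule) and 2 to 20% of UMIs in the 13 mitochondrially encoded protein genes. They numbered 537, 536 and 1113 in the E13.5, E14.5 and E15.5 libraries, with 31364271, 24342943 and 57505722 UMIs. Mouse somatic cells, barcodes with 1000 or more UMIs and under 1% mitochondrial UMIs, numbered 1643, 717 and 1739. Each germ cell was placed in a state by 3 genes: POU5F1-high (POU5F1 at 500 CPM or more, CPM being the UMIs of a gene in each 1000000 UMIs), SYCE3-high (SYCE3 in the top 6% of germ cells), STRA8-positive (at least 1 STRA8 UMI in the remaining cells) or POU5F1-low STRA8-negative (all others). In that order of libraries the states held 56, 124 and 217 POU5F1-high cells, 146, 170 and 272 POU5F1-low STRA8-negative cells, 302, 210 and 557 STRA8-positive cells, and 33, 32 and 65 SYCE3-high cells. All libraries are labelled early oogonia, while the early oogonia markers (7 genes, among them TFAP2C and NANOG) summed to 164 to 192 CPM in STRA8-positive cells, against 1058 to 1163 CPM in POU5F1-high cells, which were 10.4%, 23.1% and 19.5% of the germ cells. The 7 meiotic markers summed to 1844 to 2764 CPM in SYCE3-high cells, against 269.6 to 284 CPM in STRA8-positive cells. The 3 late oogonia markers summed to 579.7 to 674 CPM in STRA8-positive cells, against 256 to 334 CPM in POU5F1-high cells, and the 2 retinoic acid-responsive markers to 317 to 433 CPM in STRA8-positive cells, against 34.4 to 47.4 CPM in POU5F1-high cells.

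The libraries shared barcodes: 199 were found in both E13.5 and E14.5, 643 in E13.5 and E15.5, and 212 in E14.5 and E15.5. No shared barcode was a germ cell in both libraries or a mouse cell in both. Of the germ cells, 267 of 537 in E13.5, 58 of 536 in E14.5 and 344 of 1113 in E15.5 had a barcode that also occurred in another library, so results are given with and without them where they differ. Tests ran on UMI counts summed per library and state, 12 sums in all, with 6 residual degrees of freedom, so the 3 libraries served as repeats although they differed in mouse stage. Nothing in the labels gives separate cultures of 1 stage. The fits took out the level of each library, so p-values measure how far state differences varied between these libraries. The states come from 3 genes of the same cells, and those genes were left out of the tests. CPM are shares of the RNA of the cells summed, so more RNA of a gene and less RNA of the others cannot be told apart.

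All 8 genes differed between STRA8-positive and POU5F1-high cells, with 7 higher and ID1 lower in STRA8-positive cells (edgeR quasi-likelihood test, Benjamini-Hochberg adjusted p under 0.05). Of all 16264 genes tested in this comparison, 35.8% were called higher and 32.8% lower, so a call by itself was common. MSX1 had the widest difference of the 8. It was read at 209, 159 and 166 CPM in STRA8-positive cells of the E13.5, E14.5 and E15.5 libraries, against 3.24, 2.72 and 5.68 CPM in POU5F1-high cells, means of 178 ± 27.0 CPM and 3.88 ± 1.58 CPM (SD, n = 3 each). The groups did not overlap, and the POU5F1-high values were close to the 3.26, 7.57 and 5.01 CPM read in mouse barcodes. In edgeR the difference was a log2 fold change of 4.78 (SE 0.21, adjusted p = 1.89e-13), about 27.5-fold. The POU5F1-high sums held only 12, 17 and 67 MSX1 UMIs, and the log2 fold change ran from 4.63 to 6.89 over 15 alternative settings. MSX2, the closest relative of MSX1, stood at 87.8, 88.7 and 86.9 CPM in STRA8-positive cells, against 30.8, 30.9 and 25.2 CPM in POU5F1-high cells, again without overlap (edgeR log2 fold change 1.08, SE 0.11, adjusted p = 7.25e-08). MSX2 thus had a level in POU5F1-high cells above its 1.80, 3.97 and 2.72 CPM in mouse barcodes, which MSX1 had not in every library.

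The ID genes encode helix-loop-helix proteins that bind E proteins and keep them from DNA, and the 4 did not move together. ID3 stood at 241, 285 and 333 CPM in STRA8-positive cells, against 31.0, 33.3 and 25.8 CPM in POU5F1-high cells (edgeR log2 fold change 2.75, SE 0.14, adjusted p = 1.10e-12). ID2 stood at 141, 150.0 and 169 CPM in STRA8-positive cells, against 35.9, 36.0 and 26.9 CPM in POU5F1-high cells (edgeR log2 fold change 1.72, SE 0.14, adjusted p = 1.09e-09). In both genes all STRA8-positive sums lay above all POU5F1-high sums. ID4 was read at 214, 219 and 175 CPM in STRA8-positive cells, against 125, 93.2 and 97.8 CPM in POU5F1-high cells, and also rose without overlap, with the smallest of the 7 increases (edgeR log2 fold change 0.41, SE 0.11, adjusted p = 0.00195). With STRA8-positive cells limited to those with 3 or more STRA8 UMIs, the ID4 difference was 0.053 (adjusted p = 0.663) in edgeR and no longer called.

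ID1 went the other way. Its levels were 289, 328 and 327 CPM in STRA8-positive cells, against 397, 381 and 321 CPM in POU5F1-high cells, the state in which the other 3 ID genes had their lowest levels. On this scale the groups overlapped, since the E15.5 library had nearly the same level in both states. In edgeR, whose TMM factors rescale each sum, ID1 was lower in STRA8-positive cells (log2 fold change -0.75, SE 0.11, adjusted p = 4.38e-06). The factors of the 3 POU5F1-high sums were 0.703 to 0.793, against 1.03 to 1.19 in the other 9 sums. Scaled by library totals alone, the edgeR difference of ID1 was -0.22 (adjusted p = 0.0784) and was not called, while the other 7 genes stayed higher. That scaling moved the median log2 fold change of all genes to 0.61, against 0.07 with TMM, and turned the split of genes called higher and lower to 9739 and 2641, against 5819 and 5330 with TMM.

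SMAD6 and SMAD7 are inhibitory SMADs, made in response to the signal and acting back on it, SMAD6 mainly on BMP receptors and SMAD7 on both BMP and TGF-beta receptors. SMAD6 was read at 24.8, 19.99 and 26.1 CPM in STRA8-positive cells, against 9.17, 7.69 and 8.81 CPM in POU5F1-high cells (edgeR log2 fold change 0.95, SE 0.13, adjusted p = 1.91e-06). SMAD7 was read at 66.6, 51.7 and 53.4 CPM in STRA8-positive cells, against 19.4, 18.7 and 21.4 CPM in POU5F1-high cells (edgeR log2 fold change 0.94, SE 0.14, adjusted p = 6.34e-06). Neither pair of groups overlapped, and both genes rose by nearly the same factor. ZGLP1 stood at 63.1, 72.3 and 60.6 CPM in STRA8-positive cells, against 13.2, 11.4 and 15.9 CPM in POU5F1-high cells (edgeR log2 fold change 1.70, SE 0.16, adjusted p = 1.74e-08). Of all 16264 genes tested in this comparison, 35.8% were called higher and 32.8% lower, so a call by itself was common. The median log2 fold change of the 8 genes was 1.02, against 0.07 over all genes tested.

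**Figure D1:**
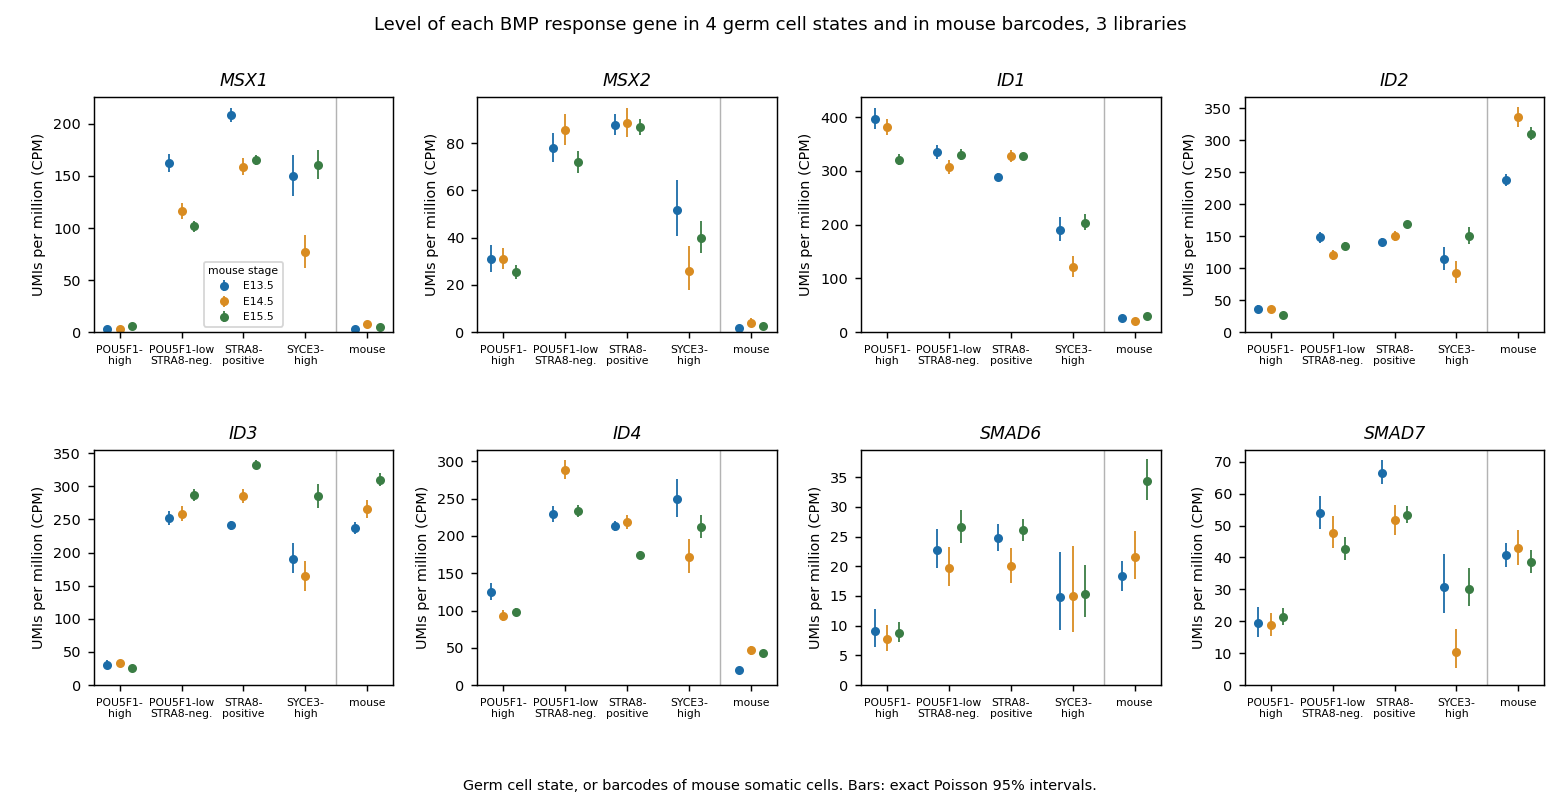
Level of each gene in CPM (vertical axis, from 0) in the 4 germ cell states and in mouse barcodes (horizontal axis), with 1 point per library coloured by mouse stage and exact Poisson 95% intervals that cover counting error only. MSX1 is below 6 CPM in all 3 POU5F1-high sums and above 75 CPM in all other germ sums, while ID1 has its lowest germ levels in SYCE3-high cells.

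The POU5F1-low STRA8-negative cells showed most of this difference. Against POU5F1-high cells, the same 7 genes were higher and ID1 lower in them by edgeR, where 33.7% of all genes tested were called higher and 30.9% lower. MSX1 stood at 162, 116 and 102 CPM in POU5F1-low STRA8-negative cells, against the 3.24, 2.72 and 5.68 CPM of POU5F1-high cells (edgeR log2 fold change 4.32, SE 0.22, adjusted p = 2.31e-12). ID3 stood at 252, 259 and 286 CPM there (edgeR log2 fold change 2.69, SE 0.14, adjusted p = 2.97e-12), and ID4 at 229, 289 and 233 CPM (edgeR log2 fold change 0.77, SE 0.11, adjusted p = 4.02e-06). The fitted ID4 value was thus 0.77 here and 0.41 in STRA8-positive cells, and the median of the 8 genes was 0.95, against 0.06 over all genes. The other increases were 1.56 for ID2, 0.95 for SMAD6, 0.95 for MSX2 and 0.73 for SMAD7, with edgeR adjusted p-values of 7.58e-09 to 2.14e-04. ID1 was read at 335, 308 and 330.1 CPM, overlapping the POU5F1-high levels of 397, 381 and 321 CPM. Its edgeR log2 fold change was -0.67 (adjusted p = 2.20e-05), and -0.17 (adjusted p = 0.159) with library totals alone. With totals alone 9456 genes were called higher and 2334 lower, against 5481 and 5022 with TMM, and the median of all genes was 0.56, against 0.06 with TMM.

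Between STRA8-positive and POU5F1-low STRA8-negative cells none of the 8 genes was called. With edgeR 2 of them, MSX1 and ID4, had an unadjusted p under 0.05, and DESeq2 called 0 as well. Of all genes tested 1.23% were called higher and 2.76% lower, 200 and 449 genes, and 318 and 348 with library totals alone, and the median of the 8 genes was 0.099, against -0.0044 over all genes. MSX1 was higher in STRA8-positive cells of all 3 libraries, at 209, 159 and 166 CPM, against 162, 116 and 102 CPM in POU5F1-low STRA8-negative cells, but the groups overlapped (edgeR log2 fold change 0.46, SE 0.13, adjusted p = 0.0571). Without the shared barcodes it was 0.50 (adjusted p = 0.00135) in edgeR, and it was called in 9 of the 15 alternative settings, over which adjusted p-values ran from 7.16e-06 to 0.530. ID4 was lower in STRA8-positive cells of all 3 libraries, at 214, 219 and 175 CPM, against 229, 289 and 233 CPM in POU5F1-low STRA8-negative cells without overlap (edgeR log2 fold change -0.35, SE 0.10, adjusted p = 0.0565), and was called in 6 of the 15 settings (adjusted p from 8.19e-04 to 0.562). The edgeR log2 fold changes of the other 6 genes lay between -0.079 for ID1 and 0.22 for SMAD7. In 5 of these, ID1, ID2, ID3, SMAD6 and SMAD7, the sums of both states overlapped in level, and the MSX2 sums of STRA8-positive cells, 87.8, 88.7 and 86.9 CPM, lay just above those of POU5F1-low STRA8-negative cells, 77.8, 85.5 and 72.0 CPM.

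Grading the POU5F1-low cells by STRA8 UMIs showed where these small differences lay. MSX1 was read at 162, 116 and 102 CPM in cells with 0 STRA8 UMIs, 208, 153 and 151 CPM with 1 or 2 UMIs and 209, 170.0 and 179.8 CPM with 3 or more. In each library the level was lowest at 0 UMIs and highest at 3 or more. ID4 was read at 229, 289 and 233 CPM with 0 UMIs, 257, 240.5 and 219.5 CPM with 1 or 2 and 172, 178 and 131 CPM with 3 or more. The lowest class of ID4 was that with 3 or more UMIs in every library, and against all POU5F1-low cells with 0 to 2 STRA8 UMIs this class was lower by edgeR at -0.66 (adjusted p = 8.19e-04). STRA8 UMIs were not thinned here, so deeper cells more often reach 3 UMIs, and the part of depth in these values was not tested.

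**Figure D2:**
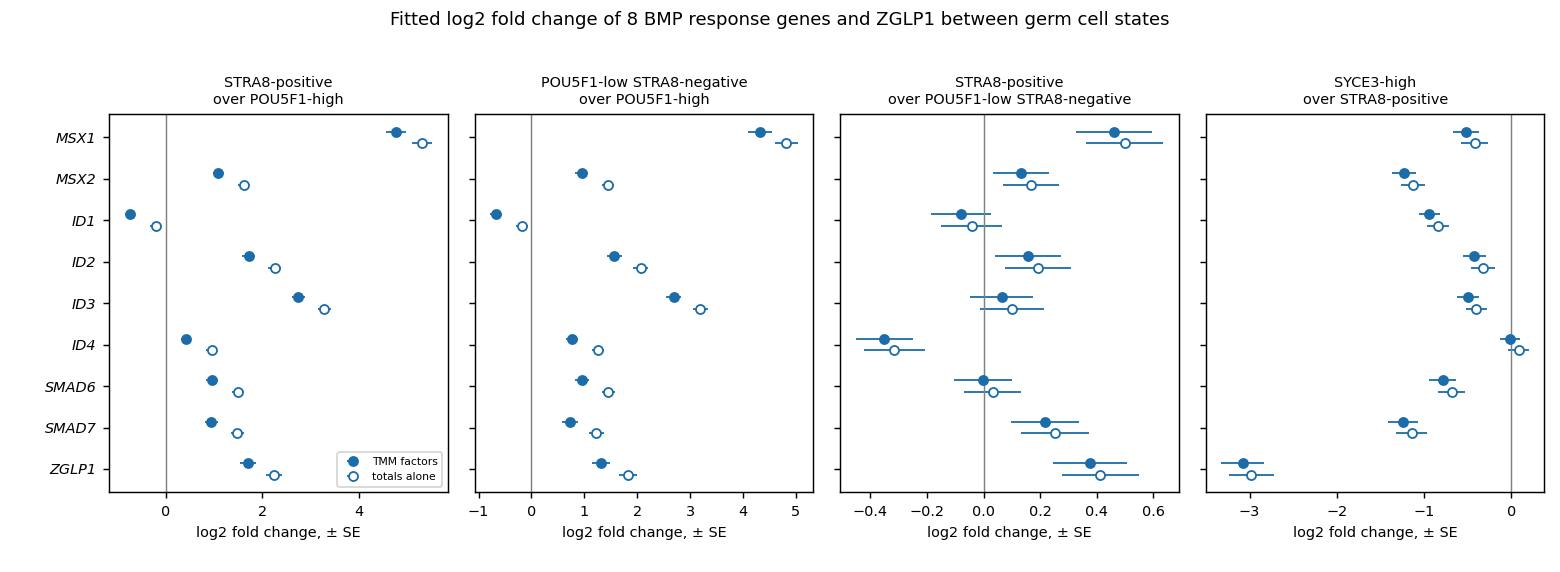
Fitted log2 fold change with its standard error (horizontal axis, a scale of its own in each panel) of the 8 genes and ZGLP1 in 4 comparisons of germ cell states, with TMM factors (filled) and with library totals alone (open). ID1 is the only 1 of the 8 genes left of 0 in both comparisons with POU5F1-high cells, and all genes but ID4 lie left of 0 in SYCE3-high over STRA8-positive cells under both scalings.

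In SYCE3-high cells, which carried the meiotic markers, 7 of the 8 genes were lower than in STRA8-positive cells by edgeR and none was higher. In this comparison 27.0% of all genes tested were called higher and 27.7% lower, and the median of the 8 genes was -0.65, against -0.022 over all genes. SMAD7 and MSX2 had the largest falls. SMAD7 stood at 30.9, 10.3 and 30.3 CPM in SYCE3-high cells, against 66.6, 51.7 and 53.4 CPM in STRA8-positive cells (edgeR log2 fold change -1.24, SE 0.17, adjusted p = 6.20e-06). MSX2 stood at 51.6, 26.0 and 39.9 CPM in SYCE3-high cells, against 87.8, 88.7 and 86.9 CPM in STRA8-positive cells (edgeR log2 fold change -1.23, SE 0.14, adjusted p = 3.23e-07). Neither pair of groups overlapped. ID1 was read at 190.5, 121 and 204 CPM in SYCE3-high cells, against 289, 328 and 327 CPM in STRA8-positive cells, also without overlap (edgeR log2 fold change -0.94, SE 0.12, adjusted p = 2.15e-06). These 3 genes fell in edgeR in every one of the 15 alternative settings, of which those without shared barcodes and with the top 3% of SYCE3 had a single SYCE3-high sum, assumed to vary like the other groups.

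The falls of the other 4 genes were smaller. SMAD6 stood at 14.8, 15.0 and 15.4 CPM in SYCE3-high cells, against 24.8, 19.99 and 26.1 CPM in STRA8-positive cells (edgeR log2 fold change -0.78, SE 0.15, adjusted p = 2.64e-04). MSX1 stood at 149.6, 76.5 and 161 CPM in SYCE3-high cells, against 209, 159 and 166 CPM in STRA8-positive cells, ID2 at 114, 93.0 and 151 CPM against 141, 150.0 and 169 CPM, and ID3 at 190.5, 164 and 285 CPM against 241, 285 and 333 CPM. In these 3 genes the groups overlapped, and edgeR gave -0.52 (adjusted p = 0.00738) for MSX1, -0.42 (adjusted p = 0.0119) for ID2 and -0.50 (adjusted p = 0.00213) for ID3. ID4 was read at 250.2, 172 and 213 CPM in SYCE3-high cells and 214, 219 and 175 CPM in STRA8-positive cells and was not called (edgeR log2 fold change -0.012, SE 0.11, adjusted p = 0.938). Its value ran from -0.25 to 0.36 over the 15 alternative settings, and it was called in 2 of them, higher with 3 or more STRA8 UMIs, at 0.33 (adjusted p = 0.0137), and lower with the top 12% of SYCE3, at -0.25 (adjusted p = 0.0219). ZGLP1 fell further than any of the 8, at 6.71, 1.58 and 11.6 CPM in SYCE3-high cells, against 63.1, 72.3 and 60.6 CPM in STRA8-positive cells (edgeR log2 fold change -3.08, SE 0.24, adjusted p = 3.31e-09).

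These smaller falls rested on few cells. Without the shared barcodes only 6, 23 and 11 SYCE3-high cells were left, and the E13.5 and E15.5 sums dropped out. The single E14.5 sum, from the library with the lowest SYCE3-high level in 7 of the 8 genes (all but SMAD6), was then assumed to vary like the other groups. On that assumption SMAD7, MSX2 and ID1 were called lower, and the edgeR values of the uncalled genes were -0.41 (adjusted p = 0.149) for MSX1, -0.15 (adjusted p = 0.654) for ID2, -0.28 (adjusted p = 0.256) for ID3, 0.23 (adjusted p = 0.333) for ID4 and 0.18 (adjusted p = 0.756) for SMAD6. With the SYCE3 gate widened to the top 12%, MSX1, ID2 and ID3 were also no longer called, at 0.064 (adjusted p = 0.651), 0.14 (adjusted p = 0.246) and 0.14 (adjusted p = 0.210). MSX1 was not called without the E13.5 library either, at -0.48 (adjusted p = 0.0607) in edgeR, nor with no library block, at -0.52 (adjusted p = 0.0528), and its value was -0.34 without E14.5 and -0.78 without E15.5. With the top 3% of SYCE3, which also left 1 SYCE3-high sum, ID2 was at -0.15 (adjusted p = 0.529). In the comparisons with POU5F1-high cells, leaving the shared barcodes out kept all 8 calls. The median depth of SYCE3-high cells was 44537, 31598 and 45284 UMIs in order of stage.

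The levels per cell were compared after thinning every germ cell to 10000 UMIs. MSX1 was found in 68.5%, 63.8% and 68.9% of STRA8-positive cells, against 1.79%, 2.42% and 1.38% of POU5F1-high cells (92.7%, 89.5% and 90.5% and 8.93%, 3.23% and 7.37% without thinning). ID1 was found in 63.6%, 50% and 64.6% of SYCE3-high cells, against 94.6%, 93.5% and 87.6% of POU5F1-high cells. ID3 was found in 74.5%, 81.4% and 87.8% of STRA8-positive cells, against 17.9%, 23.4% and 16.1% of POU5F1-high cells. SMAD6 was found in few cells of any state, with shares of 21.9%, 23.3% and 19.6% in STRA8-positive cells and 8.93%, 9.68% and 8.76% in POU5F1-high cells. With both thinned to 3000 UMIs, MSX1 was found in 33.3%, 24.6% and 25.1% of germ cells, against 0.897%, 1.20% and 1.11% of mouse barcodes. Median depths before thinning were 55620, 43003 and 48553 UMIs in germ cells and 6457, 6699 and 5325 in mouse barcodes. Mouse RNA was counted only where it maps to the monkey gene, so the mouse shares do not measure background. MSX2 was found in 20.9%, 18.3% and 19.0% of germ cells, against 0.320%, 0.449% and 0.720% of mouse barcodes. Thinning to 3000 UMIs left out 82, 49 and 211 mouse barcodes and no germ cell. In POU5F1-high cells the MSX1 UMIs lay in 1, 3 and 3 cells after thinning, with up to 5 UMIs in 1 cell of E15.5, where the variance over mean was 3.64.

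**Figure D3:**
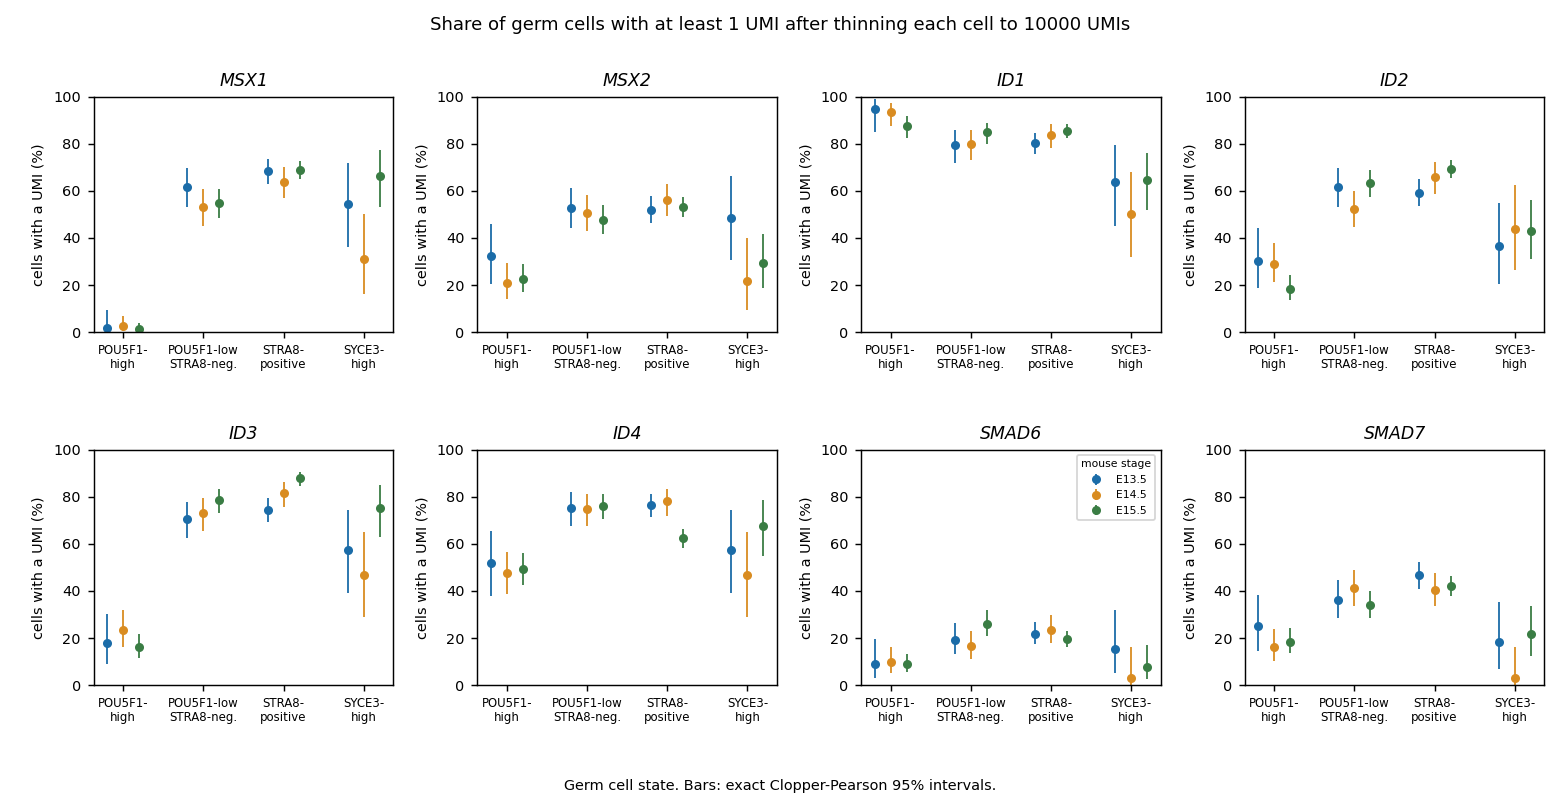
Share of germ cells with at least 1 UMI of each gene after thinning to 10000 UMIs (vertical axis, percent) in the 4 states (horizontal axis), with 1 point per library and exact Clopper-Pearson 95% intervals. The 3 MSX1 points of POU5F1-high cells lie below 3%, and the SYCE3-high intervals are wide because 33, 32 and 65 cells stand behind them.

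A median of 5, 5 and 5 of the 8 genes was found per thinned STRA8-positive cell, against 2, 2 and 2 in POU5F1-high cells. At least 4 of the 8 were found in 82.8%, 82.9% and 83.7% of STRA8-positive cells, against 25.0%, 12.9% and 12.9% of POU5F1-high cells. Thinning compares cells on the scale of library totals, on which edgeR called 9739 of 16264 genes higher and 2641 lower in STRA8-positive cells. The share of all genes found in more STRA8-positive than POU5F1-high cells was not counted. ID4 was spread unevenly over cells in some sums. Its variance over mean was 2.80, 10.6 and 5.67 in POU5F1-low STRA8-negative cells and 4.41, 12.5 and 12.8 in SYCE3-high cells, where a Poisson spread gives 1. In E13.5 the ID3 counts of POU5F1-low STRA8-negative cells were more uneven than those of ID4, at 7.17. The highest thinned ID4 count was 56 UMIs in 1 POU5F1-low STRA8-negative cell of E14.5, where the median was 2. For ID2 the variance over mean was 3.67, 6.32 and 4.51 in SYCE3-high cells, and for MSX2 0.698, 1.03 and 1.27. In SYCE3-high cells the ID2 and ID4 counts thus varied more from cell to cell than counting gives. So did those of ID1, at 4.03, 2.19 and 3.69, ID3, at 3.27, 4.07 and 3.19, and MSX1, at 2.47, 3.97 and 2.21. The MSX2 counts varied about as much as counting gives. Their means were only 0.545, 0.25 and 0.385 UMIs per thinned cell, and the part of level in this contrast was not tested. Across single SYCE3-high cells the ranks of ID1 and ID3 ran together, with Spearman's rho of 0.47, 0.85 and 0.46 over 33, 32 and 65 cells. In STRA8-positive cells rho was 0.18, 0.28 and 0.21 over 302, 210 and 557 cells. All cells had the same depth after thinning, and cells of 1 library share its preparation, so these are descriptions.

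ZGLP1-positive and ZGLP1-negative POU5F1-low cells differed in 1 of the 8 genes. After thinning, 43, 67 and 90 POU5F1-low STRA8-negative cells and 123, 93 and 225 STRA8-positive cells had a ZGLP1 UMI. They were compared with the ZGLP1-negative cells of the same library and state. ZGLP1-positive cells were 29.5%, 39.4% and 33.1% of POU5F1-low STRA8-negative cells, against 71.2%, 77.1% and 73.9% without thinning. In STRA8-positive cells the shares were 40.7%, 44.3% and 40.4%, against 83.8%, 78.1% and 79.9% without thinning. Many ZGLP1-negative cells thus held ZGLP1 RNA, so a gene that was not called is not shown to be unrelated to ZGLP1. In this test 1.12% of the 14670 genes tested were called higher and 2.13% lower, and the median of the 8 genes was -0.014, against 0.0036 over all genes. Of the 8 genes only MSX1 passed, and it was lower in ZGLP1-positive cells (edgeR log2 fold change -0.27, SE 0.072, adjusted p = 0.0495). In STRA8-positive cells MSX1 stood at 165, 128 and 155.2 CPM in ZGLP1-positive cells, against 238, 185 and 173 CPM in ZGLP1-negative cells. In POU5F1-low STRA8-negative cells it stood at 133, 112 and 107 CPM, against 175, 119 and 98.9 CPM in ZGLP1-negative cells. MSX1 was lower in 5 of the 6 pairs and higher in the POU5F1-low STRA8-negative pair of E15.5. The call was kept in 3 of 11 alternative settings, over which adjusted p-values ran from 9.47e-06 to 0.701, and DESeq2 called 0 of the 8. Without the shared barcodes MSX1 was at -0.29 (adjusted p = 0.0744) and ID4 at 0.24 (adjusted p = 0.0218) in edgeR. The other 7 genes had log2 fold changes of -0.14 for ID2 to 0.16 for ID4, with edgeR adjusted p-values of 0.145 or more.

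**Figure D4:**
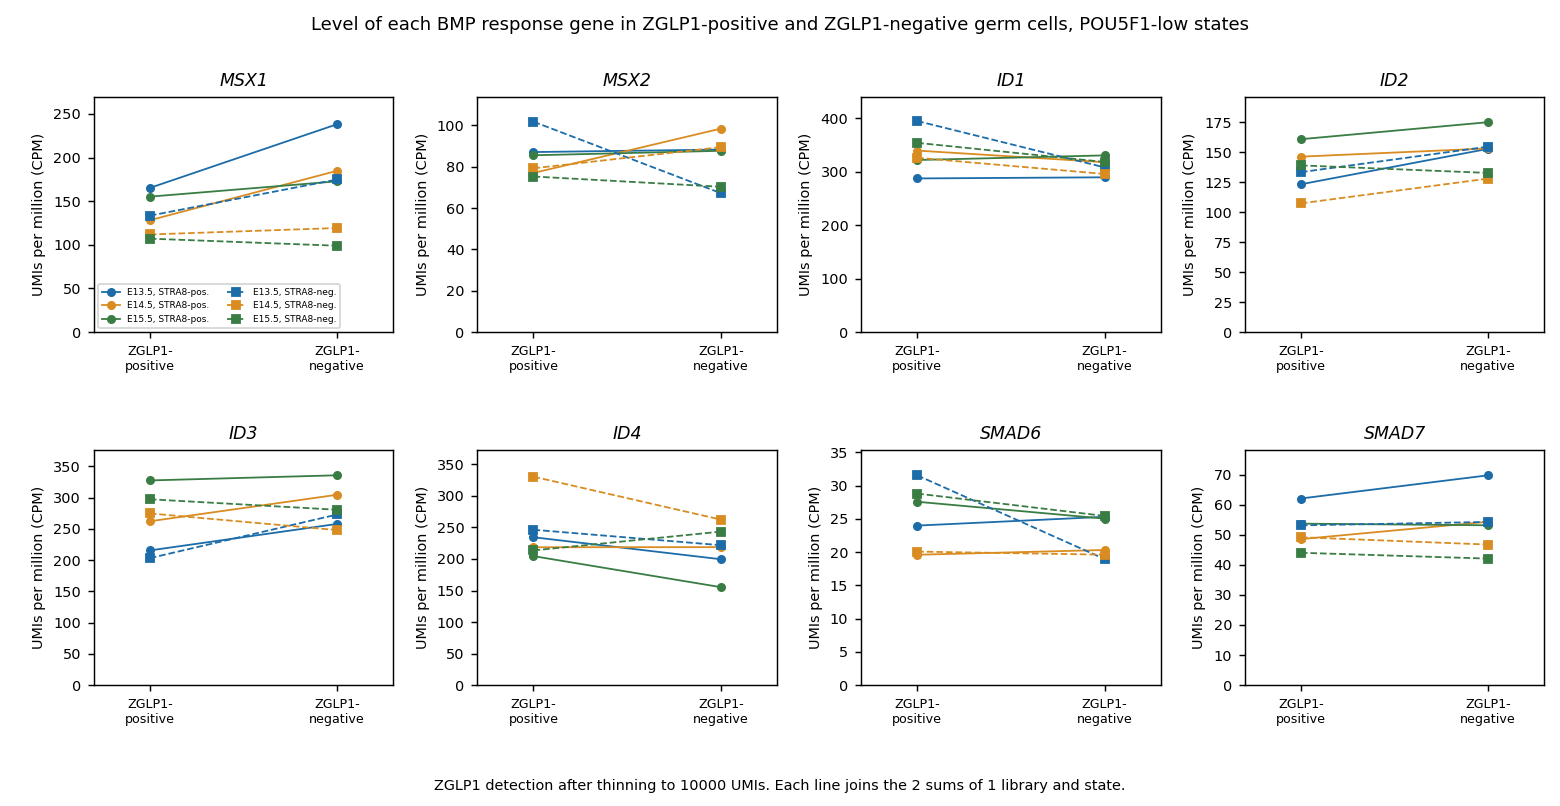
Level of each gene (vertical axis, CPM, from 0) in ZGLP1-positive and ZGLP1-negative cells (horizontal axis), with a line for each library in STRA8-positive (circles) and POU5F1-low STRA8-negative cells (squares). MSX1 is lower on the ZGLP1-positive side in 5 of 6 lines.

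The stage of the mouse cells was compared without a test, since each stage had 1 library. Over all germ cells none of the 8 genes passed the size rule of 2-fold with 20 CPM in at least 1 library. That rule was met by 0.498% of 7426 genes in E14.5 over E13.5, by 0.238% of 7553 in E15.5 over E13.5 and by 0.324% of 7405 in E15.5 over E14.5. The widest difference was that of MSX1, read at 169, 102 and 117 CPM over all germ cells of the E13.5, E14.5 and E15.5 libraries. Its log2 ratio was -0.73 for E14.5 over E13.5 and -0.53 for E15.5 over E13.5, where the medians of all genes were -0.13 and -0.043. The share of POU5F1-high cells moved with it, at 10.4%, 23.1% and 19.5% of germ cells. Within STRA8-positive cells the MSX1 log2 ratios over E13.5 were -0.39 in E14.5 and -0.33 in E15.5, and within POU5F1-low STRA8-negative cells -0.48 and -0.67. MSX1 was thus highest in E13.5 in both of these states, but in E15.5 in the others. It stood at 3.24, 2.72 and 5.68 CPM in POU5F1-high cells and 149.6, 76.5 and 161 CPM in SYCE3-high cells of the E13.5, E14.5 and E15.5 libraries. Within SYCE3-high cells SMAD7 had log2 ratios of -1.50 for E14.5 over E13.5 and 1.47 for E15.5 over E14.5, and MSX1 had 1.06 for E15.5 over E14.5. The E14.5 sum of this state held 32 cells, with 13 UMIs of SMAD7 and 97 of MSX1. These ratios are more than 2-fold, and the share of all genes so far apart within this state was not counted. ID3 was lowest in E13.5 and highest in E15.5 in STRA8-positive and in POU5F1-low STRA8-negative cells. Its log2 ratios of E15.5 over E13.5 were 0.46 and 0.18 in these states. In POU5F1-high cells ID3 was lowest in E15.5, at 31.0, 33.3 and 25.8 CPM in order of stage. In SYCE3-high cells it was lowest in E14.5, at 190.5, 164 and 285 CPM. ID1 differed least of the ID genes over the whole of the germ cells, at 309, 325 and 319 CPM. Stage, library and culture cannot be told apart here.

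In mouse somatic barcodes only RNA that maps to a monkey gene is counted, so levels are given side by side with those of germ cells and no fold is drawn. MSX2 was at 76.7, 69.6 and 67.8 CPM in germ cells, against 1.80, 3.97 and 2.72 CPM in mouse barcodes, and MSX1 was as low there, as given above. ID1 was at 309, 325 and 319 CPM in germ cells, against 25.3, 20.2 and 30.0 CPM in mouse barcodes, and ID4 at 209, 206 and 175 CPM in germ cells, against 20.3, 46.5 and 43.5 CPM in mouse barcodes. Over all germ cells pooled, ID2 and ID3 were below the mouse level in all 3 libraries. In STRA8-positive cells alone ID3, at 241, 285 and 333 CPM, was above its mouse level in each library. ID2 was at 129, 109 and 131 CPM in germ cells, against 238, 336 and 310.1 CPM in mouse barcodes, and ID3 at 217, 206 and 255 CPM in germ cells, against 236, 265 and 310.0 CPM in mouse barcodes. SMAD6 was at 21.9, 16.5 and 21.9 CPM in germ cells, against 18.3, 21.6 and 34.4 CPM in mouse barcodes, and SMAD7 at 56.0, 39.8 and 42.8 CPM in germ cells, against 40.6, 42.9 and 38.6 CPM in mouse barcodes. The mouse supporting cell markers (6 genes) summed to 34.0 to 50.6 CPM in STRA8-positive cells and 8.47 to 36.7 CPM in POU5F1-high cells, against 2682 to 3001 CPM in mouse barcodes. The mouse stromal markers (6 genes) summed to 73.7 to 110.2 CPM, 14.6 to 45.2 CPM and 2429 to 3365 CPM in these groups. Both sums were higher in the state with more ID2 and ID3, and their part in the levels of those genes was not tested. The 4 surface epithelial markers summed to 188 to 248 CPM in STRA8-positive cells and 22.7 to 36.7 CPM in POU5F1-high cells, against 53.9 to 244 CPM in mouse barcodes. Nearly all of that sum was KRT19 and LHX2, while UPK3B stood at 0.501, 0.319 and 0.520 CPM in STRA8-positive cells and UPK1B at 0.111, 0 and 0.0693 CPM. The 3 endothelial markers summed to 7.44 to 10.6 CPM in STRA8-positive cells and 37.2 to 46.5 CPM in POU5F1-high cells, and the 2 blood markers found to at most 3.09 CPM in any group.

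Among mouse barcodes the genes differed by subset. COL1A1- or COL3A1-positive barcodes, as stromal cells have, numbered 626, 208 and 660, and INHA-positive barcodes, as supporting cells have, 790, 386 and 637. ID2 stood at 567, 1175 and 667 CPM in COL1A1- or COL3A1-positive barcodes, against 66.5, 88.5 and 105 CPM in INHA-positive barcodes. ID3 stood at 311, 511 and 399 CPM in the first subset, against 195, 190.2 and 234 CPM in INHA-positive barcodes. Both genes were higher in COL1A1- or COL3A1-positive barcodes of all 3 libraries. ID4 stood at 38.7, 173 and 50.5 CPM in COL1A1- or COL3A1-positive barcodes, against 12.3, 14.2 and 16.5 CPM in INHA-positive barcodes, with the highest value in E14.5. MSX1 also stood out in that library, at 29.7 CPM in COL1A1- or COL3A1-positive barcodes (exact Poisson 95% interval 20.1 to 42.4 CPM), while E13.5 and E15.5 had 3.15 and 2.99 CPM. SMAD7 stood at 53.1, 69.4 and 40.9 CPM in COL1A1- or COL3A1-positive barcodes, against 37.1, 37.7 and 35.3 CPM in INHA-positive barcodes, a smaller difference of the same direction in every library. UPK3B-positive barcodes numbered 7, 1 and 9, too few to describe.

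Genes of the signalling chain were read in the same tests, with other BMP response genes, ZGLP1 among them, and E proteins. These were 43 genes in 7 lists, of which 39 were tested. In STRA8-positive over POU5F1-high cells edgeR called 25 of the 39 higher and 4 lower, with a median log2 fold change of 1.09, against 0.07 over all genes. Of the 4 signal transducers 3 rose, and SMAD9 rose most (edgeR log2 fold change 2.37, SE 0.17, adjusted p = 2.31e-10). It stood at 42.4, 35.0 and 39.4 CPM in STRA8-positive cells, against 2.70, 6.09 and 5.51 CPM in POU5F1-high cells, while SMAD1 had a log2 fold change of 1.09 and SMAD4, the common partner, 0.86. Of the 7 receptors 3 rose and 2 fell, where 35.8% of all genes were higher and 32.8% lower. The type 1 receptor BMPR1B rose by 0.68 and the type 2 receptor BMPR2 by 0.35, and the type 1 receptors BMPR1A, at -0.58, and ACVR1, at -1.07, fell. The fall of BMPR1A was lost when library totals alone were used.

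Most extracellular and membrane antagonists rose in that comparison as well. Of the 8 in this list 6 rose and none fell, where 35.8% of all genes were higher and 32.8% lower. FST, which encodes the activin and BMP binding protein follistatin, stood at 49.6, 46.7 and 69.3 CPM in STRA8-positive cells, against 0.270, 2.24 and 3.73 CPM in POU5F1-high cells (edgeR log2 fold change 3.94, SE 0.26, adjusted p = 8.96e-11). GREM1, a secreted antagonist, had a log2 fold change of 1.92, and BAMBI, a decoy receptor, 1.24. Of the 7 other BMP response genes tested 6 rose, among them GATA3 at 3.03, GATA2 at 2.15 and TBX3 at 1.29, and TFAP2A, at -0.61, fell unless library totals alone were used. TFAP2A is also an early germ cell gene. Of the E proteins, the partners of ID proteins, TCF4 rose by 1.69 and TCF12 by 0.67. BMP7 was the only ligand with 20 CPM in a germ sum, at 7.46, 12.1 and 7.48 CPM in STRA8-positive cells, against 0.809, 2.56 and 1.44 CPM in POU5F1-high cells (edgeR log2 fold change 1.87, SE 0.31, adjusted p = 2.26e-05). Of the 4 intracellular inhibitors SKIL rose (edgeR adjusted p = 2.21e-08) and SMURF1 fell, at -0.59, a call lost with library totals alone. In POU5F1-low STRA8-negative over POU5F1-high cells 26 of the 39 were higher and 5 lower, where 33.7% of all genes were higher and 30.9% lower. With library totals alone 33 were higher and 1 lower in both comparisons. Of all 16264 genes tested, that scaling called 9739 and 9456 higher and 2641 and 2334 lower, with STRA8-positive cells first.

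In SYCE3-high over STRA8-positive cells 8 of the 39 were higher and 18 lower by edgeR, where 27.0% of all genes were higher and 27.7% lower. Their median was -0.46, against -0.022 over all genes. Of the receptors 4 fell and 1 rose: BMPR1B was lower at -1.80 and ACVR1 at -1.43, and BMPR2 was higher at 1.19. Of the antagonists 5 fell and 1 rose, with GREM1 at -2.35, BAMBI at -1.57 and FST at -1.04. Of the intracellular inhibitors 3 rose and none fell, with SMURF1, a ubiquitin ligase for BMP SMADs and their receptors, at 1.65 (edgeR adjusted p = 1.90e-05). SMURF1 thus moved against SMAD6 and SMAD7, the inhibitory SMADs among the 8 genes. With library totals alone 11 of the 39 were higher and 16 lower, where 5058 of all 16264 genes tested were higher and 3790 lower. In STRA8-positive over POU5F1-low STRA8-negative cells GATA3 was the only one of the 39 called, higher at 0.42 (edgeR adjusted p = 0.0256), and in ZGLP1-positive over ZGLP1-negative cells BMP7 was the only one of 36, lower at -0.57 (edgeR adjusted p = 0.0249).

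Over the 12 library and state sums the 8 genes formed several patterns. Mean levels of MSX1 were 3.88 ± 1.58 CPM in POU5F1-high cells, 127 ± 31.6 CPM in POU5F1-low STRA8-negative cells, 178 ± 27.0 CPM in STRA8-positive cells and 129 ± 45.7 CPM in SYCE3-high cells (SD, n = 3 each), where only the first stood clear of its neighbour. For ID1 the means in the same order of states were 366, 324, 314 and 172 CPM, from the 3 values each given above, and only the last state stood clear of the others. For SMAD7 they had 19.8 ± 1.35, 48.1 ± 5.61, 57.2 ± 8.19 and 23.8 ± 11.7 CPM (SD, n = 3 each), so that the first and last were both low. Levels were compared on the log2(CPM + 1) scale across the sums, which share libraries and are given as a description. Pearson's r was 0.993 between ID2 and ID3, 0.973 between MSX1 and ID3, 0.942 between MSX2 and SMAD7, 0.908 between SMAD7 and ZGLP1, and -0.39 between MSX1 and ID1. MSX2, SMAD7, SMAD6, ID2 and ID3, like ZGLP1, had lower means in the POU5F1-high and SYCE3-high states than in the others. Among 7232 other genes the patterns most like MSX1 were RRAGD at 0.996, GREB1L at 0.995, ZNF445 at 0.995, C15H9orf40 at 0.994 and DLD at 0.993. The gene most like MSX2 was TTL at 0.988, that most like ID1 was HACL1 at 0.986, that most like ID2 was ZFHX3 at 0.985, that most like ID3 was DUSP22 at 0.991, that most like ID4 was ACADL at 0.958, that most like SMAD6 was FAM234B at 0.982 and that most like SMAD7 was CNN3 at 0.979.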

How the data were processed

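RNA was measured by 10x Genomics single-cell sequencing (kit v3.1) in 3 libraries of sorted and mixed monkey germ cells and mouse somatic cells. The authors deposited a filtered matrix of UMI counts per gene and barcode for each library, and the file headers name Cell Ranger 6.0.1 as its source. No build or annotation is named in the sources used here, the gene names are those of the feature lists, and neither sequences nor coordinates of the genes were used here. The libraries held 2807, 1565 and 3455 barcodes with 44762884, 30607553 and 70850640 UMIs. Mouse RNA is counted only where it maps to a monkey gene.

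From the deposited counts, germ barcodes (10000 UMIs, 2 to 20% mitochondrial) and mouse barcodes (1000 UMIs, under 1% mitochondrial) were taken. The 7, 4 and 4 barcodes with 10000 or more UMIs and 1 to 2% mitochondrial UMIs were left out, as were 2 cells of E15.5 that met both the POU5F1 and the SYCE3 threshold (452 CPM). Doublets were not called. Counts were summed per library and state and tested with edgeR 4.0.16 (quasi-likelihood, filterByExpr, TMM, library as block, Benjamini-Hochberg threshold 0.05 over all genes tested) in R 4.3.3 with limma 3.58.1. The ZGLP1 comparison had the library and state combination as block and 5 residual degrees of freedom. POU5F1, STRA8, SYCE3, the 13 mitochondrial genes and, in the ZGLP1 comparison, ZGLP1 were not tested. DESeq2 1.42.0, other scalings, filters and gates, each library left out and the cells without shared barcodes were alternatives. The last of these, the scaling by library totals and the classes by STRA8 UMIs were chosen after seeing the data. CPM were computed from the deposited counts, and library ratios are log2 of CPM + 1. Poisson and Clopper-Pearson 95% intervals cover counting error only. The fits were tested on simulated data. Other work used Python 3.11.15 with numpy 2.4.6, pandas 2.3.3, scipy 1.17.1 and matplotlib 3.10.9.

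All 8 genes and ZGLP1 were named, pathway genes only with 20 CPM in a germ sum, and similar genes by Pearson's r over the sums among genes with a mean of 20 CPM. The 8 genes, the pathway lists and the marker lists were chosen with earlier results of these data known.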

Additional observations from a re-analysis of the deposited data

Results flagged for a closer look

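ID4 differed between libraries in its change into the SYCE3-high state. Its log2 ratio of SYCE3-high over STRA8-positive cells (CPM + 1) was 0.23 in E13.5, -0.35 in E14.5 and 0.28 in E15.5, so E14.5 ran opposite to the other libraries. ID1 did so in the smaller change between the POU5F1-low states, where its log2 ratio of STRA8-positive over POU5F1-low STRA8-negative cells was -0.21 in E13.5 and 0.091 in E14.5. Neither difference was tested, since each stage had 1 library.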

How the results depend on the processing

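The 7 rises and the fall of ID1 against POU5F1-high cells kept their direction in all 15 alternatives of both comparisons, and the calls lost are given beside them in the results. Directions turned, with a call under at least 1 of the settings compared, for genes of the SYCE3-high over STRA8-positive comparison: with the top 12% of SYCE3 the log2 fold change was 0.064 for MSX1, 0.14 for ID2 and 0.14 for ID3, with 3 or more STRA8 UMIs it was 0.33 for ID4, and without shared barcodes 0.18 for SMAD6. Without shared barcodes that comparison called 3647 genes, against 8904 with all barcodes. The 649 genes called between STRA8-positive and POU5F1-low STRA8-negative cells became 1135 with no filter on low counts, 27 with no library block, 1656 with POU5F1 at 1000 CPM, 1279 with the top 3% of SYCE3, and 21 to 773 with 1 library left out, fewest without E15.5 and 93 without E13.5. The 477 genes of the ZGLP1 comparison became 1016 with no filter, 5 with no library block, 216 with DESeq2, and 59 to 291 with 1 library left out (59 without E13.5, 194 without E14.5). Between libraries 28 genes passed the size rule in E15.5 over E13.5 at 10 CPM, against 18 at 20 CPM. For the mouse stages, no paired analysis was possible because each stage had 1 library, while the state and ZGLP1 comparisons had the library as block. Uncalled values near 0 also changed sign, for ID1, ID3 and SMAD6 between the POU5F1-low states, for MSX2 and SMAD7 in the ZGLP1 comparison and for ID4 in the SYCE3-high comparison. Without thinning, 129 shares of cells moved beyond counting error and 6 did not, and with mouse barcodes of 3000 UMIs or more 1 mouse level moved and 26 did not. SYCE3-high sums of 33, 32 and 65 cells and genes near 20 CPM, SMAD6 above all, limit the precision.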
